A study of Mus musculus with 2 samples.

Results

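The mouse apolipoprotein cluster holds Apoe, Apoc1, Apoc4 and Apoc2 side by side on chromosome 7, with Tomm40 and Bcam beyond Apoe and Clptm1 beyond Apoc2. These 7 genes were described on 2 Affymetrix arrays through every probe set that the platform annotation gives to 1 of them alone, which were 8 of 45101 probe sets. Each gene had 1 probe set except Clptm1, which had 2. The 4 apolipoprotein genes were taken as the cluster, and Tomm40, Clptm1 and Bcam as adjacent genes of the same locus. The arrays measured RAW264.7 cells, a mouse macrophage-like line, that stably expressed murine LXRα (gene Nr1h3) after chemical transfection. The ligand culture received the LXR agonist GW3965 at 1 µM together with the RXR agonist LG268 at 100 nM for 24 h, and the other culture received the solvent DMSO for 24 h. Both cultures carried the introduced LXRα, driven by a promoter not given in the sources used here, and neither ligand was given alone. Each condition had 1 array, so no test of a difference was possible, and every value below describes these 2 arrays.

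Apolipoproteins are the protein part of lipoprotein particles. Macrophages secrete apolipoprotein E, which takes up cholesterol exported by the transporters ABCA1 and ABCG1 and is a ligand of the LDL receptor family. The C apolipoproteins are small exchangeable proteins made mostly in liver, where the whole cluster is active. LXR is a sterol-sensing nuclear receptor that binds DNA with RXR, and in macrophages the Apoe cluster is one of its known targets, served by enhancers mapped within the human cluster.

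Apoe, Apoc1 and Apoc2 had far higher signals with the ligands than with DMSO, Apoc4 was not measured, and no measured adjacent gene reached 2-fold. A signal is the MAS5 summary of a probe set on a linear scale. It was read against a floor of 276.4, the median of all probe sets other than controls over both arrays. A gene that exceeded the floor on the ligand array, the DMSO array or both was counted as measured, and a ratio of at least 2-fold was counted as higher or lower. By this count 3 of the 4 cluster genes were higher with the ligands, none was lower, and the fourth was not measured. Over all 11077 measured genes, 1.67% were higher by this rule and 0.776% were lower. In bulk RNA, more cells expressing a gene and more RNA per cell cannot be told apart.

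Apoe had a signal of 8672.1 in the ligand culture and 298.6 in the DMSO culture. Its DMSO signal lay just above the floor, and the ratio was 29.0-fold, a log2 ratio of 4.86. Apoc1, whose protein is known to inhibit the lipid exchange protein CETP in humans and the uptake of apolipoprotein E-bearing remnants, had a signal of 13584.2 with the ligands and 206.7 with DMSO. The DMSO signal was below the floor, so Apoc1 was at least 49.2-fold higher with the ligands (log2 ratio of at least 5.62). Apoc2, whose protein is the cofactor that lipoprotein lipase needs, had a signal of 11575.2 with the ligands and 461.5 with DMSO, a ratio of 25.1-fold (log2 ratio 4.65). Of the 3 genes only Apoc2 was clear of the floor with DMSO by more than a small margin, so its ratio depends least on where the floor is set.

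Apoc4, which encodes a less studied C apolipoprotein of the liver, had a signal of 38.8 with the ligands and 24.8 with DMSO. Both values lay far below the floor, and no fold is given for it. Apoc4 lies between Apoc2 and Apoc1 in gene order, so the 3 higher genes flank a gene whose probe set was not measured on either array. A signal below the floor does not show that the transcript was absent.

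**Figure D1:**
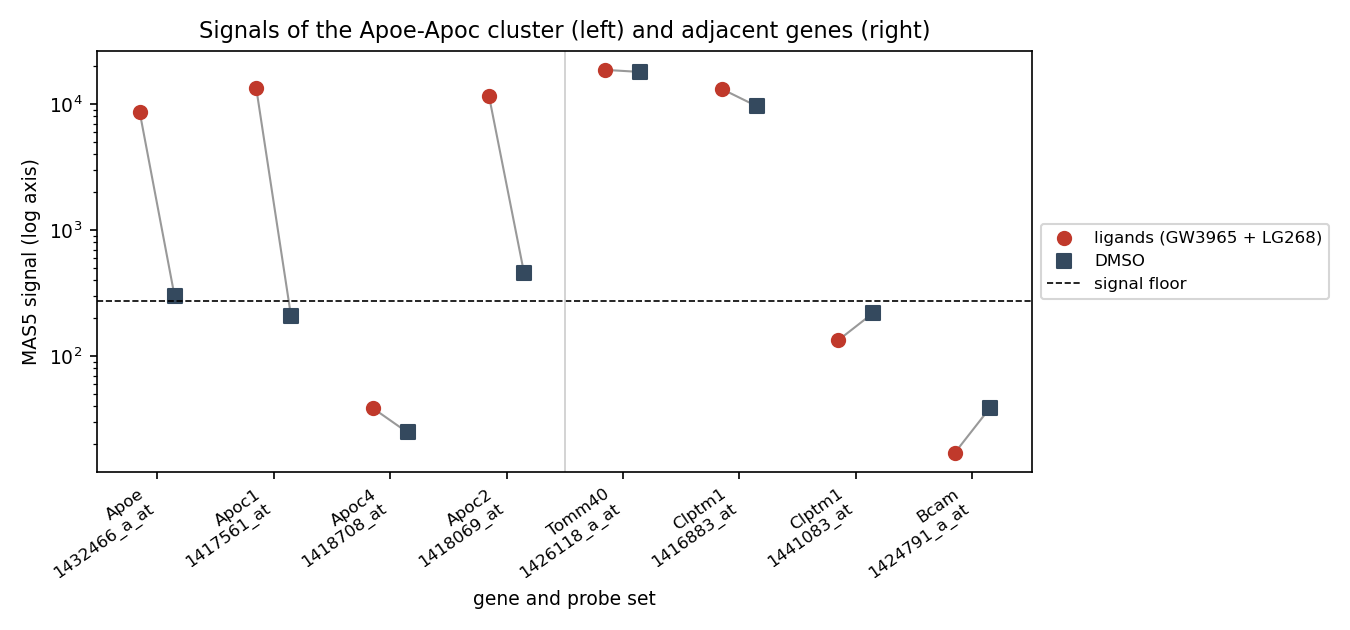
MAS5 signals (log axis) of the 8 probe sets, with the ligand array as circles on the left and the DMSO array as squares on the right of each pair, and the floor of 276.4 as a dashed line. Apoe, Apoc1 and Apoc2 lie between 8672.1 and 13584.2 with the ligands and between 206.7 and 461.5 with DMSO, whereas Apoc4, Bcam and the second Clptm1 probe set lie below the floor on both arrays.

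Of the 3 adjacent genes, 2 were measured and neither was at least 2-fold higher or lower, where 2.45% of all measured genes were. Tomm40, the import channel of the mitochondrial outer membrane and the nearest neighbour of Apoe on one side, had a signal of 18754.1 with the ligands and 18056.6 with DMSO, a log2 ratio of 0.05. Clptm1, a membrane protein known in humans and mice for retaining GABA-A receptors in the endoplasmic reticulum, had a signal of 13211.5 with the ligands and 9655 with DMSO in its brighter probe set. That ratio was 1.37-fold (log2 ratio 0.45). The second Clptm1 probe set was below the floor on both arrays, at 134.1 with the ligands and 220.8 with DMSO. Bcam, a laminin-binding adhesion molecule of epithelial and endothelial cells, was below the floor too, at 17.1 with the ligands and 38.7 with DMSO.

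The only error these arrays hold is the disagreement between probe sets of the same gene. From the 4866 genes that had 2 probe sets clear of the floor in both cultures, this disagreement gave an SD of 0.28 for the log2 ratio of a single probe set. When these genes were split into 3 equal groups by signal, the SD was 0.37 in the dimmest group and 0.18 in the brightest. This spread covers measurement within the arrays and not variation between cultures. The log2 ratios of Apoe and Apoc2 were more than 10 times 0.37, although the DMSO signal of Apoe lay just above the floor. Apoc1 was below the floor with DMSO, and no such SD was estimated for signals that low. The 0.05 of Tomm40 lay within 0.18, and the 0.45 of Clptm1 lay beyond it. Apoe and Apoc2 differed by 0.21 on the log2 scale, less than the SD of 0.40 for a difference between 2 probe sets, so their order among the ratios was not resolved.

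Among the 11077 measured genes ordered from the highest ratio, Apoc1 had rank 2 by its bound, Apoe rank 3 and Apoc2 rank 5. The other ranks down to 5 were held by Cd5l, a secreted macrophage protein, with a log2 ratio of 6.57, and Abca1, with 4.76. These ranks depend on the floor. With it at the 75th percentile of signal, where all 3 cluster ratios are bounds, Apoc1 had rank 4, Apoe 14 and Apoc2 6 among 6967 genes. Tomm40 had rank 4331 and Clptm1 rank 1095. When the measured genes were divided into 10 equal bins by mean signal, Apoe and Apoc1 fell into a bin of 1108 genes in which 1.71% were at least 2-fold higher and the SD of the log2 ratios was 0.46. Apoc1 had the highest ratio of that bin and Apoe the one after it. Apoc2 had the highest ratio of its own bin of 1108 genes, in which 1.99% were at least 2-fold higher. Clptm1 had rank 68 among the 1107 genes of its bin and Tomm40 rank 364 among 1108.

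**Figure D2:**
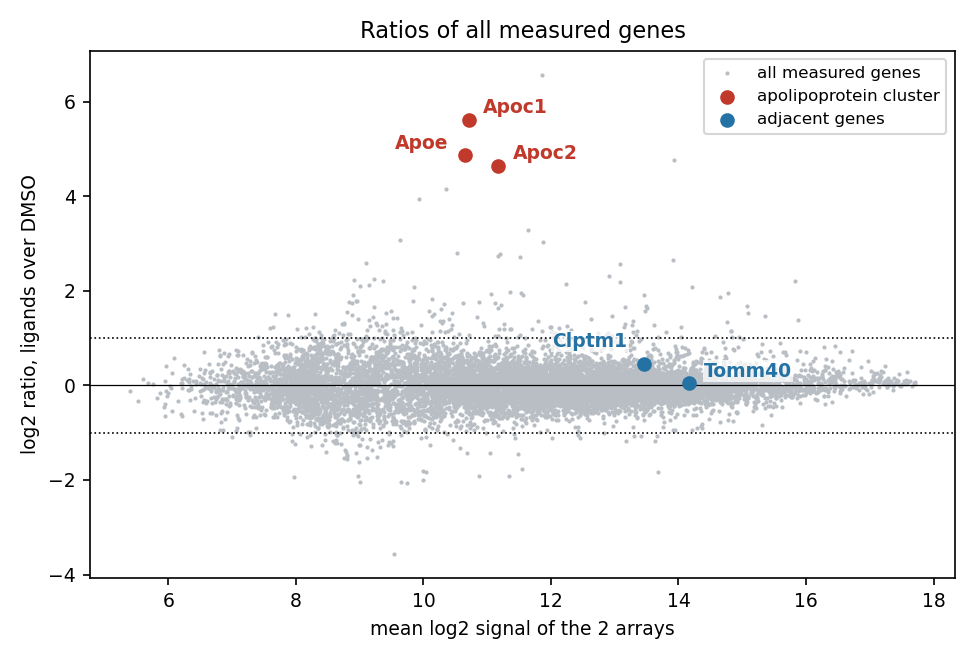
Log2 ratio (ligands over DMSO) against the mean log2 signal for the 11077 measured genes, with the measured cluster genes and adjacent genes named and dotted lines at 2-fold. Apoc1, Apoe and Apoc2 lie at 5.62, 4.86 and 4.65, and Clptm1 and Tomm40 at 0.45 and 0.05.

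The genes whose log2 ratio was nearest to that of Apoe, among 9956 genes above the floor with the ligands and outside the 7 described here, were Abca1, Scd3, Arg2, Igf1 and Cd5l. The likeness is the absolute difference of log2 ratios over these 2 arrays. It was 0.10 for Abca1, the cholesterol exporter that loads apolipoproteins, with a signal of 81158.6 with the ligands and 2988.8 with DMSO. It was 0.71 for Scd3, a stearoyl-CoA desaturase, and 0.93 for Arg2, the mitochondrial arginase, which was below the floor with DMSO. Igf1, a growth factor, was 1.57 away and Cd5l 1.71 away. By brightest probe sets, Abca1 alone of these 5 genes lay within the SD of 0.40 for a difference between 2 probe sets. The 3 measured probe sets of Abca1 ran from 4.76 to 5.52, so its likeness to Apoe depends on the probe set taken.

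The wider locus was described by gene order. It was taken as the 20 protein-coding genes on each side of the members in the RefSeq gene table, with the 2 genes between members that are not members themselves. Of these 42 genes, 28 had a probe set of their own, 20 of the 28 were measured, 8 were below the floor on both arrays, and the other 14 were not analysed here. Most of the measured genes lay on the Clptm1 side, and beyond Bcam only Cblc, Bcl3, Pvr and Igsf23 were measured. The 20 measured genes had log2 ratios from -0.42 to 1.17 with a median of 0.05, against a median of -0.03 over all measured genes. Among these 20, 11 were positive and 9 negative. Of the 20, 16 lay within 1.5-fold. These values are from the brightest probe set of each gene. Dimmer probe sets reached 1.48 for Mark4, 1.00 for Trappc6a and -0.51 for Ppp1r13l, whose brightest stood at 0.55, -0.01 and -0.32. At 2-fold 2 genes were higher and none lower, beside the 1.67% of all measured genes that were higher. With the floor at the 25th percentile of signal, 5 genes were higher and 2 lower.

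The 2 genes higher at the reported floor were Klc3 and Nectin2. Nectin2, a cell adhesion molecule and virus receptor that lies between Tomm40 and Bcam, had a signal of 1182 with the ligands and 564.1 with DMSO in its brighter probe set (2.10-fold). Its second probe set had 845.9 with the ligands and 527.1 with DMSO (1.60-fold), so both were higher and 1 passed 2-fold. Averaged over both probe sets, Nectin2 was not at least 2-fold higher. Klc3, a kinesin light chain on the far side of Clptm1, had a signal of 832.5 with the ligands and 369.7 with DMSO from its single probe set (2.25-fold).

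The nearest measured genes beyond the members were Relb and Clasrp on the Clptm1 side and Cblc and Bcl3 on the Bcam side. Relb, an NF-κB subunit that comes next after Clptm1, had a log2 ratio of 0.05, from 845.3 with the ligands and 818.1 with DMSO. Clasrp, a regulator of splicing, had 0.34. Cblc, a ubiquitin ligase, had -0.19 at a signal of 372.7 with the ligands and 426.0 with DMSO. Bcl3, an IκB-family protein that acts in the nucleus, had 0.63, from 1791.1 with the ligands and 1158.8 with DMSO. By brightest probe sets, the lowest ratio of the locus was that of Cd3eap, a subunit of RNA polymerase I, at -0.42. Along the locus, the ratios of Apoc2, Apoc1 and Apoe therefore stood between neighbours whose log2 ratios were 0.45 at Clptm1 and 0.05 at Tomm40.

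**Figure D3:**
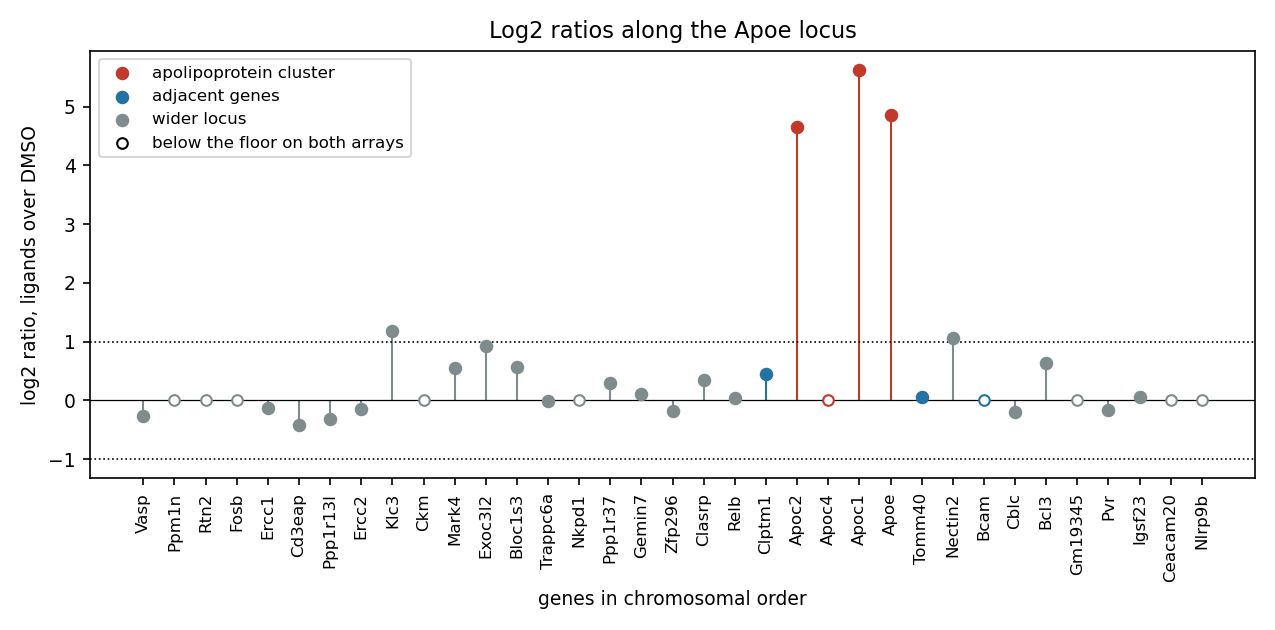
Log2 ratio (ligands over DMSO) of the members and the wider locus in chromosomal order, evenly spaced, with open circles for genes below the floor on both arrays and dotted lines at 2-fold. Apoc2, Apoc1 and Apoe stand between 4.65 and 5.62, with the unmeasured Apoc4 among them. The other measured genes of the locus, each by its brightest probe set, lie between -0.42 and 1.17.

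The promoter sequences show what lies directly before the start sites of cluster genes with a high ratio and of one that was not measured. RefSeq promoter windows of the GRCm38.p6 build were found by symbol for 6 of the 7 genes, all but Apoc1, and all lie on the minus strand. The 250 bases before each start were searched on both strands for the nuclear receptor half-site AGGTCA and for the LXR element, which is that half-site repeated in the same orientation after a spacer of any 4 bases. Below are the window of Apoe (chr7:19699189-19699438, before the first of its 3 start sites in the table), that of Apoc2 (chr7:19677942-19678083, shortened by the 108 bases that lie in Apoc4) and that of Apoc4 (chr7:19681461-19681710). They are given 5′ to 3′ on the gene's strand, with half-sites in capitals.
Apoe: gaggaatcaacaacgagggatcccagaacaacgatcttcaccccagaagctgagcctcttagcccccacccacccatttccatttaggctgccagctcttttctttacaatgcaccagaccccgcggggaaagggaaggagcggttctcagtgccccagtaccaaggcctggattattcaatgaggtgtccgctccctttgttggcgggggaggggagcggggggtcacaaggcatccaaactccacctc
Apoc2: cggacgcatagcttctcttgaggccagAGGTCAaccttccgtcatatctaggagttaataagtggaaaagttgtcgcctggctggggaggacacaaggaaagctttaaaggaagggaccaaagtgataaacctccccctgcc
Apoc4: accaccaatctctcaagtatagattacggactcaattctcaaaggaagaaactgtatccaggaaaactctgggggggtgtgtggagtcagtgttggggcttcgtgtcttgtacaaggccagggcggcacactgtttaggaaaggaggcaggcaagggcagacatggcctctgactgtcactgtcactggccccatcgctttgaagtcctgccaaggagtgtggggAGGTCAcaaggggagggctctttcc
The Apoc2 window held 1 half-site, 115 bases before the start, and the Apoc4 window held 1, 25 bases before the start. None of the 3 Apoe windows held one. Over all 32851 promoter windows, 14.0% held at least 1 half-site, and 5 windows held the exact LXR element, none of them a window of these genes. With up to 3 mismatches in the 12 fixed letters, the element was found in the windows of Clptm1 and Bcam and in 18.5% of all windows. The half-site was thus present before Apoc2, which had a 25.1-fold ratio, and before Apoc4, which was not measured, and absent before Apoe. A match is a description of letters, and its absence says nothing of sites elsewhere in the locus.

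The promoter windows also differed in the letters of basal elements. The TATA box TATAAA was found before the second Apoe start and in no other window of these genes, where 12.4% of all windows held it. On the minus strand this second Apoe window (chr7:19698622-19698871) lies downstream of the first Apoe start. The GC box GGGCGG was found 3 times before Tomm40, 2 times before Clptm1 and 1 time before Apoc4, and in 32.7% of all windows. It was in none of the windows of Apoe, Apoc2 and Bcam. The GC content of the windows was 57.2% for the first Apoe start, 52.0% for Apoc2, 54.0% for Apoc4, 55.2% for Tomm40, 58.4% for Clptm1 and 70.0% for Bcam, against a median of 52.4% over all windows. It was taken over all 250 bases, which for Apoc2 include the 108 bases not printed above.

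Other apolipoproteins were little detected in these cells. Of 16 listed genes outside the cluster, 14 had a probe set of their own and 3 were measured. No measured one reached 2-fold in either direction, where 2.45% of all measured genes did. With the floor at the 25th percentile of signal, 3 were higher and 3 lower. Clu, also called apolipoprotein J, was near the floor at 326.9 with the ligands and 297.0 with DMSO (log2 ratio 0.14). Apoa1, the main protein of high-density lipoprotein, had a signal of 380.1 with the ligands and 25.9 with DMSO and was at least 1.38-fold higher. Apom, a carrier of sphingosine-1-phosphate, had 35.6 with the ligands and 409.7 with DMSO and was at least 1.48-fold lower. Apoc3, the C apolipoprotein encoded in another cluster, was below the floor on both arrays, at 244.4 with the ligands and 60.2 with DMSO.

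The receptors that bind apolipoprotein E were measured but differed little. Of 13 listed receptor and adaptor genes, 9 were measured. By brightest probe sets all 9 stayed under 2-fold, where 2.45% of all measured genes reached it in either direction. Their median log2 ratio was 0.22. Trem2, a lipid-sensing receptor that binds apolipoprotein E, had the highest ratio, 1.72-fold, from 28391.7 with the ligands and 16508.6 with DMSO. Lrp1, which clears remnant particles, was 1.60-fold higher, from 23198.9 with the ligands and 14502.7 with DMSO. Lrp8, also called apolipoprotein E receptor 2, had the lowest log2 ratio, -0.37. Vldlr was below the floor on both arrays. The syndecan Sdc1 had probe sets from -0.13 to 1.24 on the log2 scale, and its brightest stood at 0.42.

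The measured partners of apolipoprotein C-II in lipolysis did not share its ratio. Of 9 listed genes of the lipase system, 3 were measured. By brightest probe sets all 3 stayed under 2-fold, where 2.45% of all measured genes reached it in either direction. Lpl, the lipase that apolipoprotein C-II activates, had a signal of 164897 with the ligands and 132942 with DMSO in its brightest probe set. That log2 ratio was 0.31, and its other measured probe set had 1.06, which is above 2-fold. Lmf1, which matures the lipase, had 0.10, and Angptl4, which inactivates it, had -0.26, from 1461.1 with the ligands and 1754.4 with DMSO.

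Of 9 listed genes of sterol export and particle remodelling, all were measured, 3 were higher with the ligands by 2-fold or more, and none was lower by that much. The list had a median log2 ratio of 0.21. Besides Abca1 these were Pltp, the phospholipid transfer protein (4.21-fold, from 38781.1 with the ligands and 9212.7 with DMSO), and Abcg1 (3.75-fold). Abcg1 is given by its brightest probe set, with a log2 ratio of 1.91, and its other measured probe set had 2.97. Lcat, which esterifies cholesterol on particles activated by apolipoproteins, had a signal of 12.7 with the ligands and 430.5 with DMSO and was at least 1.56-fold lower. Of 5 listed LXR and RXR genes, 3 were measured and stayed under 2-fold, where 2.45% of all measured genes reached it in either direction. By brightest probe sets, the highest was Nr1h3 itself with a log2 ratio of 0.82 and the lowest was Rxra with -0.03. Rxra was near the floor, and its 3 measured probe sets ran from -0.38 to 0.33. Both cultures carried introduced Nr1h3. Whether its 1 probe set reads the introduced transcript, the cells' own or both was not tested. The lists, like the 7 genes, were chosen with earlier results of these arrays known, and their counts stand beside the 1.67% of measured genes that were at least 2-fold higher.

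**Figure D4:**
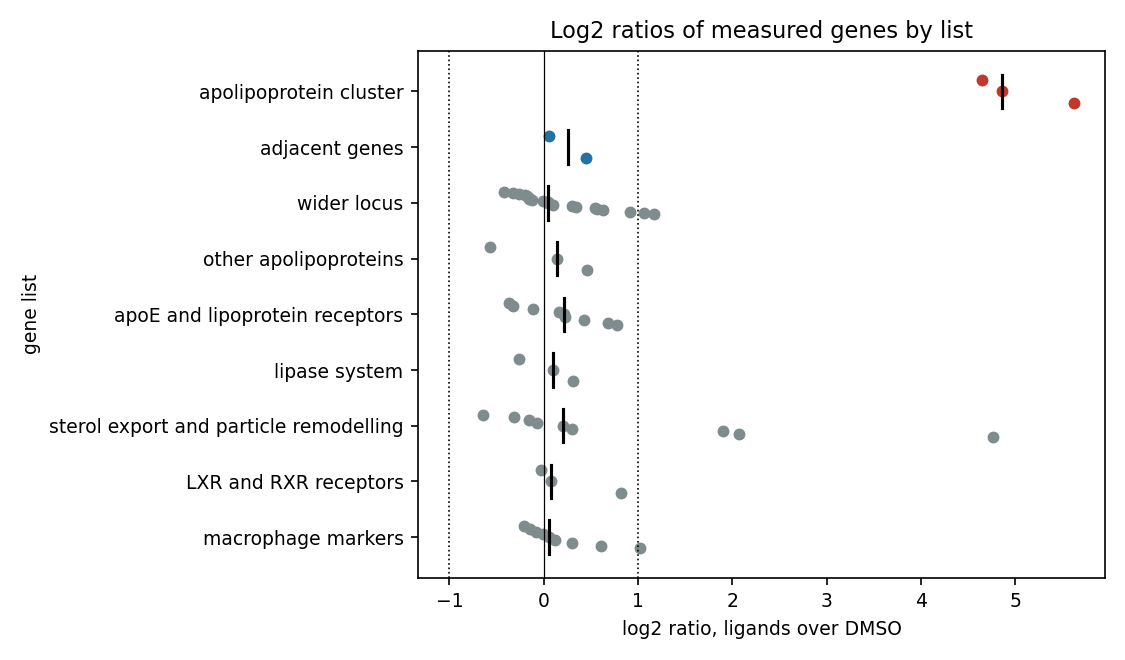
Log2 ratio (ligands over DMSO) of each measured gene of the lists, with a black bar at each list's median and dotted lines at 2-fold. The cluster genes lie at 4.65 to 5.62, the adjacent genes at 0.05 and 0.45, and Abca1, Pltp and Abcg1 are the other listed genes outside the locus and the macrophage markers beyond 2-fold.

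Because Apoe, Apoc1 and Apoc2 are strongly expressed in liver, and some in other tissues, markers of other cell types were read beside them. By the brightest probe set of each, none of the 6 hepatocyte, 4 lymphoid, 6 fibroblast and 4 adipocyte markers on the array was above the floor on either array. A second probe set of the fibroblast marker Dcn was above it with DMSO alone, at 16.2 with the ligands and 329.0 with DMSO. The summed hepatocyte signal was 491.4 with the ligands and 552.8 with DMSO, and the highest single marker, Cyp2e1, was at 207.1 with the ligands and 242.2 with DMSO. Of 5 granulocyte markers, 3 were above the floor on at least 1 array, and their list summed to 751.8 with the ligands and 717.8 with DMSO. All 9 macrophage markers were measured, with a median log2 ratio of 0.06. Only Mpeg1, a pore-forming protein of macrophages, was at least 2-fold higher, at 45001.1 with the ligands and 22120.4 with DMSO. Its log2 ratio was 1.02, just past 2-fold, and 1.67% of all measured genes were at least 2-fold higher.

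The floor sets the size of the high ratios more than any other processing choice tried. With a floor at the 75th percentile of signal (2186), all DMSO signals of Apoe, Apoc1 and Apoc2 fall below it, and the ratios become bounds of at least 3.97-fold, 6.21-fold and 5.30-fold. With no floor and 32 added to each signal, they were 26.3-fold for Apoe, 57.0-fold for Apoc1 and 23.5-fold for Apoc2. All 3 stayed at least 2-fold higher under every floor, normalization and probe set rule tried. Tomm40 stayed between 0.05 and 0.08 and Clptm1 between 0.45 and 0.48 on the log2 scale.

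**Figure D5:**
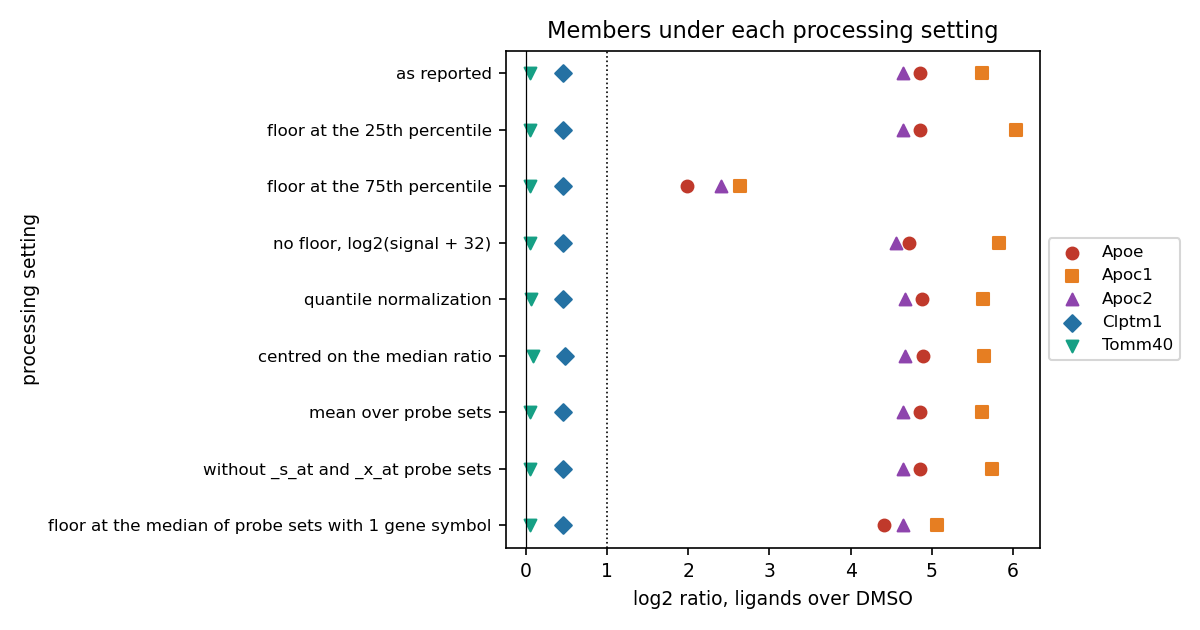
Log2 ratios of the 5 measured members as reported and under each processing alternative, with a dotted line at 2-fold. The floor at the 75th percentile moves Apoe, Apoc1 and Apoc2 to between 1.99 and 2.64, and Clptm1 and Tomm40 stay below 2-fold in every setting.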

How the data were processed

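RNA from 1 ligand-treated and 1 DMSO-treated culture was labelled with biotin and hybridised to 1 Affymetrix mouse array each, per the labels' protocols. Per the submitters' processing notes, the authors used MAS5 (no version was given in the sources used here), and the deposited table holds 1 linear intensity for each probe set and array. Both arrays had a trimmed mean of 2500 (2% off each end), so ratios are relative to the array as a whole and a difference in RNA content per cell is lost. Detection calls were not used here, and the number of arrays limits the precision.

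Of 45101 probe sets, 34945 had 1 gene symbol in the platform annotation, 932 several, 9160 none, and 64 were controls. For 34741 probe sets the gene identifier was found in the GRCm38.p6 table, and the symbol given there was used, whether or not it differed. The files name no build, so that table gave names and gene order, and coordinates only for its own sequences. Where a gene had several probe sets, the one with the highest mean log2 signal stood for it. Signals were raised to a floor of 276.4 before log2 ratios (ligands over DMSO) were taken, and where only 1 of the arrays exceeded the floor the fold is a bound ("at least"). No test was run, because each group had 1 array. The calling procedure was tested on simulated data.

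Named were all 7 members, list and locus members at least 2-fold apart or with the highest and lowest ratio, and the 5 genes with log2 ratios nearest to Apoe, passing over the other members, RIKEN clones and predicted genes. Other genes quoted were chosen after their values were seen, as were the ranks within signal bins. The members and lists were chosen with earlier results of these data known. Alternatives were other floors, no floor, quantile normalization, centring, the mean over probe sets, no _s_at and _x_at probe sets, and thresholds of 1.5-fold and 3-fold. Python 3.11.15, numpy 2.4.6, pandas 2.3.3 and matplotlib 3.10.9 were used.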

Additional observations from a re-analysis of the deposited data

How the results depend on the processing

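The counts of cluster genes at least 2-fold higher (3) and of adjacent genes at least 2-fold apart (0) did not change under any alternative tried. The log2 ratio of Apoe was 1.99 with the floor at the 75th percentile and 4.42 with a floor at the median of probe sets with 1 gene symbol (406.5), an alternative chosen after seeing the data. Under these 2 floors and the 25th percentile (70.2), Apoc1 had 2.64, 5.06 and 6.04. Apoc2 and the median of the measured cluster genes were both 2.40 with the floor at the 75th percentile. A higher floor raises the DMSO signal used, which by construction lowers the ratio. The number of genes of the wider locus at least 2-fold higher, 2 as reported, was 5 with the lower floor and 5 with no floor, adding Ckm, Nkpd1 and Gm19345, which lie below the reported floor on both arrays. The number lower, 0 as reported, was 2 with the lower floor and 3 with no floor. The number higher was 0 with the higher floor, 1 with the mean over probe sets, 4 at 1.5-fold and 0 at 3-fold. Without _s_at and _x_at probe sets it was 3, adding Mark4. Of the other apolipoproteins, 0 higher and 0 lower as reported, 3 were higher and 3 lower with the lower floor and with no floor, and of the lipase list, 0 higher as reported, 2 were higher with both. Of the lipoprotein receptors, 0 lower as reported, 2 were lower with the lower floor and 1 with no floor, and of the sterol export list, 0 lower as reported, 1 was lower with each. The ranks of Apoc1, Apoe and Apoc2 were 2, 5 and 4 with the floor of 406.5, and Apoe had rank 4 with no floor and with the mean over probe sets. The share of all measured genes at least 2-fold higher was 8.32% with the lower floor, 1.02% with the higher floor and 9.31% with no floor, and 6.36% and 0.497% at thresholds of 1.5-fold and 3-fold. The numbers higher and lower, 185 and 86 as reported, were 1348 and 1335 with the lower floor, 1694 and 1685 with no floor, and 71 and 13 with the higher floor. No paired analysis was possible because each group has 1 array, and for the same reason no array could be left out.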

Other observations

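Signals below the floor gave large ratios in either direction. Of 7116 genes below the floor on both arrays, 52.1% had signals at least 2-fold apart when no floor was set, with an SD of 1.78 on the log2 scale. The ratios without a floor of Apoc4 (1.56-fold) and Bcam (0.442-fold), and of the second Clptm1 probe set (0.607-fold), belong to this range of signal. Lipg, an endothelial lipase, with 250.6 with the ligands and 56.5 with DMSO, and Apob, the structural protein of very-low-density lipoprotein, with 235.2 with the ligands and 18.6 with DMSO, are listed members in the same range.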
